A study of Mus musculus with 16 samples.

Results

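A set of genes differed between CKO and WT in the same direction in all 4 sorted subsets of mouse spleen dendritic cells (DCs), and these genes are described here. They were chosen from a table of raw counts. A member is an autosomal gene whose log2 fold change of CKO over WT had the same sign in the Dec205, pDC, Esamlo and Esamhi cells, and its test was the mean of the 4 contrasts at equal weight. Of 24116 genes in the table, 13790 passed a filter on low counts and 13317 of those lay on autosomes. Among the 13317, 2447 (18.4%) had 1 direction in the 4 subsets, of which 1318 were higher and 1129 lower in CKO. The mean contrast passed the test in 544 of the 2447, with 361 higher and 183 lower in CKO. These 544 (4.09% of the 13317, with 2.71% higher and 1.37% lower) are the shared genes of the text. The same sign says only that no subset pointed the other way: a fold change near 0 in 1 subset still counts as shared.

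CKO libraries came from Etv6-deficient cells, per the design text, and WT libraries from wild-type cells. Each subset gave 2 CKO and 2 WT libraries, 16 in all, made by SMART-seq from sorted spleen cells. Dec205 is a receptor used to sort the cross-presenting classical DC (cDC1), pDC is the plasmacytoid DC, and Esamlo and Esamhi are the ESAM-low and ESAM-high cells of the cDC2 lineage. The Cre driver, the alleles, and the age and sex of the mice are not named in the labels.

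Etv6, also known as TEL, is a transcription factor of the ETS family that acts mainly as a repressor. Its ETS domain binds sites with the letters GGAA, and its pointed domain lets the protein assemble into chains on DNA. The gene is known from fusions in leukaemia and from its need in blood stem cells. Among DCs, cDC1 take up dead cells and present their antigens to CD8+ T cells, cDC2 present mainly to CD4+ T cells, and pDCs make large amounts of type I interferon.

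The libraries held 14434287 to 20709265 counts. A marker of each sort was highest in the cells of that label. The chemokine receptor gene Xcr1 averaged 1667 CPM (the count scaled by library size) in Dec205 CKO and 1252 CPM in Dec205 WT, with a group mean of 40.9 CPM or less in the other subsets. Siglech averaged 5825 CPM in pDC CKO and 5548 CPM in pDC WT, and 6.33 CPM or less elsewhere. Esam averaged 133 CPM in Esamhi CKO and 147 CPM in Esamhi WT, and 32.8 CPM or less elsewhere. Lyz2 averaged 2860 CPM in Esamlo CKO and 2890 CPM in Esamlo WT, and 1029 CPM or less elsewhere. Not every marker followed its label: Clec10a, a cDC2 marker, and Cd4, Ccr2 and Clec12a, markers of the Esam cells, averaged highest in pDC. Clec10a averaged 211 CPM in pDC CKO and 244 CPM in pDC WT, and 47.8 CPM or less elsewhere. Wdfy4, a cDC1 marker, averaged highest in Esamhi WT, at 860 CPM against 781 CPM in Dec205 WT. Among the CKO groups, Cd209a, a cDC2 marker, averaged highest in pDC, at 445 CPM against 321 CPM in Esamlo CKO. The genotypes also differed in sex-linked genes. Xist lay between 114 and 355 CPM in the 8 CKO libraries and between 0 and 1.44 CPM in the 8 WT libraries. The Y-linked Ddx3y reached at most 1.95 CPM in CKO and lay between 105 and 222 CPM in WT. Sex and genotype therefore cannot be told apart in any value given here, on autosomes too. Nothing in the labels ties the 2 libraries of a group to different mice, so the p-values reflect library-to-library spread, which may be technical. Whether libraries of different subsets came from the same mice is not stated either, and the test took all libraries as independent. In bulk RNA of sorted cells, fewer cells of a type and less RNA per cell cannot be told apart.

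Etv6 itself was a shared gene and was lower in CKO, but its transcript remained. It had 205 and 219 CPM in Dec205 CKO against 337 and 375 CPM in Dec205 WT, and 363 and 322 CPM in pDC CKO against 346 and 352 CPM in pDC WT. It had 370.1 and 362 CPM in Esamlo CKO against 426 and 512 CPM in Esamlo WT, and 389.8 and 434 CPM in Esamhi CKO against 492 and 451 CPM in Esamhi WT. The libraries did not overlap in Dec205, Esamlo and Esamhi and overlapped in pDC. By edgeR's quasi-likelihood test with Benjamini-Hochberg adjustment, its mean log2 fold change was -0.33 (SE 0.05, adjusted p = 0.00195), with -0.75 for Dec205, -0.03 for pDC, -0.36 for Esamlo and -0.19 for Esamhi. The call was lost when the Dec205 libraries were left out. Counts are given per gene and not per exon, so reads from exons outside a deleted part would still be counted. Within 5 Mb of Etv6 on either side, 5 of 60 tested genes (8.33%) were shared genes, against 4.09% of all autosomal tested genes. They were Cd69, Eps8, Hebp1, Clec1a and Etv6 itself, the targeted gene on which the window is centred. Nothing is read from this share.

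Higher genes outnumbered lower ones and moved further. In the mean contrast, 802 of 13790 tested genes passed the test (5.82%, and 5.75% of the autosomal ones), 541 higher (3.92%) and 261 lower (1.89%) in CKO. The 544 shared genes were drawn from these, and 222 autosomal and 36 other called genes were not shared. The rule used the directions behind this contrast, so nothing is read from the 22.2% of members that passed. Over the shared genes, the median mean log2 fold change was 0.78 for those higher and -0.40 for those lower, beside 0.01 for all tested genes. A mean of at least 1 was reached by 138 higher genes and, in the negative direction, by 25 lower genes. At least 1 in every subset was reached by 40 higher and 5 lower genes. The count of 544 depended on the fit: DESeq2 called 819 shared genes, an additive model of subset and genotype 317, means over subsets 159, and edgeR without the first Esamlo CKO library 354.

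Among the shared genes, the largest of the 4 changes lay most often in Dec205. The median log2 fold change of the 361 higher genes was 0.88 for Dec205, 0.60 for pDC, 0.57 for Esamlo and 0.55 for Esamhi. For the 183 lower genes it was -0.54 for Dec205, -0.32 for pDC, -0.36 for Esamlo and -0.35 for Esamhi. Dec205 held the largest of the 4 changes for 165 of the 361 higher and 90 of the 183 lower genes. The share over all tested genes was not computed, and a large change in 1 subset also raises the mean used for the choice. Nothing particular to the shared genes is read from these counts. In the fit of all 16 libraries, the Dec205 contrast called 170 of the higher genes, where 3.44% of all tested genes were called higher, and 80 of the lower ones, where 3.34% were called lower (6.78% in all). In pDC these counts were 88 at a background of 1.47% and 16 at 0.377% (1.85% in all). In Esamlo they were 37 at 0.457% and 5 at 0.0943% (0.551% in all), and in Esamhi 51 at 0.674% and 12 at 0.203% (0.877% in all). These counts use a spread shared by all subsets, and fits of 1 subset alone called genes in another order, with 136 for Dec205, 91 for pDC, 126 for Esamlo and 578 for Esamhi. The CKO libraries lay beyond the WT libraries in all 4 subsets for 167 of the higher and 74 of the lower genes, where 316 of all tested genes did so in 1 direction (2.29%). All 8 CKO libraries lay beyond all 8 WT libraries for 18 higher and 4 lower genes, where 32 of all tested genes did (0.232%). The shared genes were chosen on these same 16 libraries, so nothing is read from these counts or from the calls within a subset. The size of the effect differed between subsets in 64 of the 544 shared genes (11.8%), where 2.44% of all tested genes passed that test. The choice used the same 4 contrasts and favours genes with large changes, so nothing is read from this share either.

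The direction was also looked at in libraries that the choice did not use. Genes were called on the mean of 3 subsets, kept where these 3 had 1 direction, and then read in the subset left out. When Dec205 was left out, 412 of 523 such genes (78.8%) had the same direction in it, against 56.4% of the genes that agreed in the 3 subsets without being called. For pDC this was 409 of 583 genes (70.2%) against 54.8%. For Esamlo it was 297 of 326 (91.1%) against 66.2%, and for Esamhi 306 of 375 (81.6%) against 62.6%. Esamlo was thus the subset whose directions were matched most often and pDC the one matched least often. The sex pattern of the libraries is the same in the subset left out. Its libraries may also come from the same mice as those used for the choice, which the labels do not say. The subset left out may thus not be independent of the choice.

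**Figure D1:**
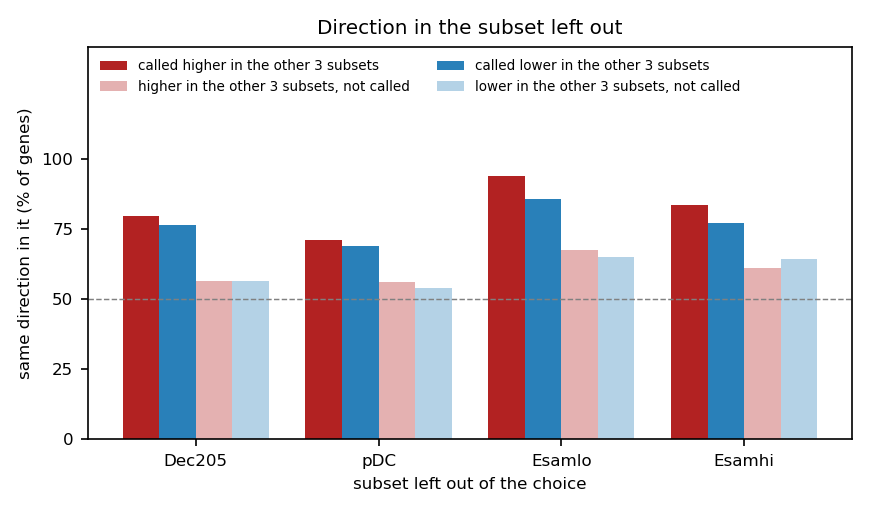
Share of genes with the same direction in a subset left out of the choice (vertical axis, % of genes; dashed line at 50%), by the subset left out (horizontal axis). Dark bars are genes called in the other 3 subsets and pale bars are genes that agreed in them without being called, red for higher and blue for lower in CKO. The dark bars stand above the pale ones in every subset, with the highest in Esamlo (93.9% of the higher genes).

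The 15 higher and 10 lower genes that were most evenly shared were picked by the smallest of their 4 absolute log2 fold changes. The higher ones were Plcb1, Qpct, Chst10, Lrrc3, Cables1, Aoah, Pydc3, Cfb, Pros1, Col17a1, Crim1, Klk8, Hpgd, Cox6a2 and Hopx. The lower ones were Slc15a2, Gp2, Adamdec1, Scel, Dapk1, Clec4a3, Apol7c, Cdh17, Prkar2b and Mras. Several of these genes had a group at or near 0 counts, and there the fitted fold change depends on a prior count. Calls on 2 of the higher genes rested on 1 library: without the first pDC CKO library the adjusted p was 1 for Lrrc3 and 1 for Cfb. In those fits the remaining pDC CKO library held 0 counts, and the mean contrast is then poorly determined.

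**Figure D2:**
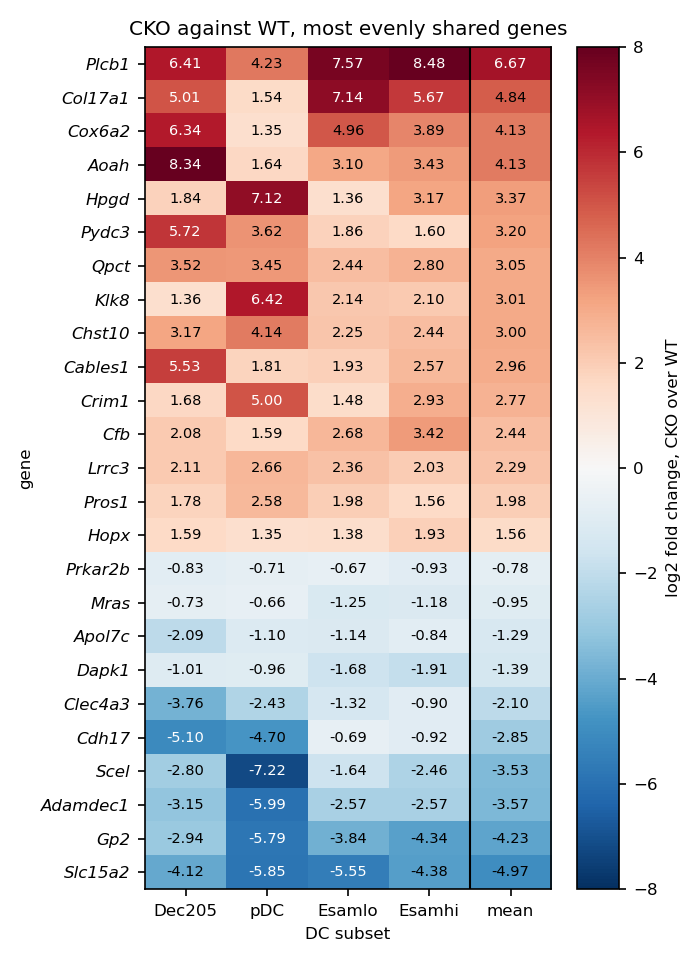
Log2 fold change of CKO over WT (colour and printed value) for the 25 most evenly shared genes (rows) in each subset and in the mean of the 4 (columns). Red is higher and blue lower in CKO. Plcb1 was above 4 in every subset and Slc15a2 below -4 in every subset, while Aoah and Cox6a2 were far larger in Dec205 than in pDC.

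A pair of components of the hemidesmosome, the structure that anchors epithelial cells to their basement membrane, rose in the mean of the 4 subsets. Col17a1, which encodes the transmembrane collagen XVII, had 151 and 209.7 CPM in Dec205 CKO against 7.51 and 3.72 CPM in Dec205 WT, and 30.3 and 34.9 CPM in pDC CKO against 14.4 and 8.03 CPM in pDC WT. It had 230.3 and 234 CPM in Esamlo CKO against 2.44 and 0.73 CPM in Esamlo WT, and 369.7 and 391 CPM in Esamhi CKO against 6.76 and 8.2 CPM in Esamhi WT. All 8 CKO libraries lay above all 8 WT libraries, and its mean log2 fold change was 4.84 (SE 0.19, adjusted p = 1.1e-08). It was called in each subset. The rise differed in size between subsets (adjusted p = 0.00068), from 1.54 in pDC to 7.14 in Esamlo. Itgb4, which encodes the integrin beta 4 chain of the hemidesmosome, had 9.64 and 6.29 CPM in Dec205 CKO against 0 and 0 CPM in Dec205 WT, and 4.7 and 6.59 CPM in pDC CKO against 1.12 and 0.0508 CPM in pDC WT. It had 9.18 and 8.02 CPM in Esamlo CKO against 0.114 and 0 CPM in Esamlo WT, and 2.98 and 4.06 CPM in Esamhi CKO against 0 and 0 CPM in Esamhi WT. It was almost absent from WT. Over the 2 libraries of a group, this is at least 76.1-fold higher in Dec205 CKO and at least 45.3-fold higher in Esamhi CKO, with the WT floor taken as 3 counts over the group, and 9.59-fold higher in pDC CKO. The mean contrast had an adjusted p of 0.00016. Of the 20 tested genes in a list of epithelial junctions and hemidesmosomes, these 2 were the called shared genes (background 4.09%), and the median mean log2 fold change of the list was -0.08.

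The enzyme genes Chst10 and Qpct were among the most evenly shared higher genes. Chst10, the sulfotransferase that makes the HNK-1 carbohydrate, had 13.7 and 16.5 CPM in Dec205 CKO against 1.29 and 2.03 CPM in Dec205 WT, and 7.72 and 3.59 CPM in pDC CKO against 0.641 and 0 CPM in pDC WT. It had 92.1 and 97.4 CPM in Esamlo CKO against 19.3 and 20.5 CPM in Esamlo WT, and 187 and 185 CPM in Esamhi CKO against 38.1 and 30.5 CPM in Esamhi WT. CKO and WT did not overlap in any subset, and the mean log2 fold change was 3.0 (SE 0.23, adjusted p = 6.6e-06). No difference between subsets was detected for it (adjusted p = 0.492). Qpct, glutaminyl cyclase, which closes the N-terminal ring of secreted peptides, had 395 and 439 CPM in Dec205 CKO against 37.6 and 35.3 CPM in Dec205 WT, and 0.264 and 1.02 CPM in pDC CKO against 0.107 and 0 CPM in pDC WT. It had 32.99 and 46.1 CPM in Esamlo CKO against 4.66 and 10.02 CPM in Esamlo WT, and 11.3 and 11.5 CPM in Esamhi CKO against 1.44 and 1.82 CPM in Esamhi WT. It had 11.5-fold more in Dec205 CKO and 6.96-fold more in Esamhi CKO, and lay at 1.02 CPM or less in every pDC library. Its mean log2 fold change was 3.05 (SE 0.30, adjusted p = 5.4e-05).

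Phosphoinositide signalling enzymes rose in 2 forms. Plcb4, a phospholipase C of the beta class that acts downstream of G protein-coupled receptors, had 44.6 and 41.2 CPM in Dec205 CKO against 24.1 and 23.5 CPM in Dec205 WT, and 56.1 and 55.6 CPM in pDC CKO against 10.9 and 9.15 CPM in pDC WT. It had 84.1 and 78.8 CPM in Esamlo CKO against 4.09 and 4.51 CPM in Esamlo WT, and 49.6 and 65.7 CPM in Esamhi CKO against 3.46 and 3.58 CPM in Esamhi WT. The libraries ran from 41.2 to 84.1 CPM in CKO and from 3.46 to 24.1 CPM in WT, and all 8 CKO libraries lay above all 8 WT libraries. Its mean log2 fold change was 2.9 (SE 0.09, adjusted p = 1.6e-09), and the sizes differed between subsets (adjusted p = 6.4e-05), with 0.85 for Dec205, 2.48 for pDC, 4.24 for Esamlo and 4.03 for Esamhi. Its relative Plcb1 had 0.615 and 0.584 CPM in Dec205 CKO against 0 and 0 CPM in Dec205 WT, and 10.6 and 10.02 CPM in pDC CKO against 0.107 and 0.965 CPM in pDC WT. It had 26.9 and 33.3 CPM in Esamlo CKO against 0.284 and 0 CPM in Esamlo WT, and 20.8 and 21.7 CPM in Esamhi CKO against 0.0533 and 0.0519 CPM in Esamhi WT. Every WT library stood below 1 CPM. Its mean log2 fold change was 6.67 (SE 0.50, adjusted p = 1.2e-05), and in Esamlo the ratio of the fitted levels was 190.4. Prkg1, the cGMP-dependent protein kinase, was at 0 in 7 of the 8 WT libraries and between 0.528 and 5.74 CPM in the 8 libraries of CKO, which in Esamlo is at least 58.4-fold higher in CKO.

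Pros1, Aoah, Hpgd and Cfb were also shared genes and higher in CKO. Pros1 encodes protein S, an anticoagulant and a ligand of the TAM receptors that clear dying cells, and it had 9.89 and 10.1 CPM in Dec205 CKO against 2.2 and 3.58 CPM in Dec205 WT, and 68.8 and 57.3 CPM in pDC CKO against 12.2 and 8.79 CPM in pDC WT. It had 36.4 and 38.6 CPM in Esamlo CKO against 10.9 and 8.17 CPM in Esamlo WT, and 16.8 and 18.8 CPM in Esamhi CKO against 4.15 and 7.89 CPM in Esamhi WT. The groups did not overlap in any subset, and the mean log2 fold change was 1.98 (SE 0.16, adjusted p = 8.9e-06), with 1.78 for Dec205, 2.58 for pDC, 1.98 for Esamlo and 1.56 for Esamhi. Aoah, which removes acyl chains from bacterial lipopolysaccharide, had 225 and 264 CPM in Dec205 CKO against 0.607 and 0.879 CPM in Dec205 WT, and 0.74 and 0.75 CPM in pDC CKO against 0 and 0.457 CPM in pDC WT. It had 5.59 and 8.36 CPM in Esamlo CKO against 0.398 and 1.26 CPM in Esamlo WT, and 2.24 and 2.99 CPM in Esamhi CKO against 0.426 and 0.0519 CPM in Esamhi WT. The rise was 323-fold in Dec205 and 3.12-fold in pDC, and the effect differed between subsets (adjusted p = 0.00812). Hpgd, the dehydrogenase that inactivates prostaglandin E2, had 193 and 193 CPM in Esamlo CKO against 72.5 and 78.1 CPM in Esamlo WT. In Esamhi it had 185 and 149.9 CPM in Esamhi CKO against 18.5 and 18.7 CPM in Esamhi WT. The mean of Hpgd was 3.37 (SE 0.35, adjusted p = 0.00014), with 1.85 for Dec205, 7.12 for pDC, 1.36 for Esamlo and 3.17 for Esamhi. The pDC value rested on 37 counts in CKO against 0 in WT. The complement factor gene Cfb had 190.4 and 201 CPM in Esamlo CKO against 38.1 and 22.9 CPM in Esamlo WT, and its pDC libraries overlapped at 1.74 and 0 CPM in pDC CKO against 0.588 and 0 CPM in pDC WT. In a list of 14 tested enzymes and lipid-handling genes, 8 were shared genes and higher in CKO (background 2.71%), with a median of 2.10 on the log2 scale. That list was drawn up with earlier results of these data known and its direction is no independent evidence.

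**Figure D3:**
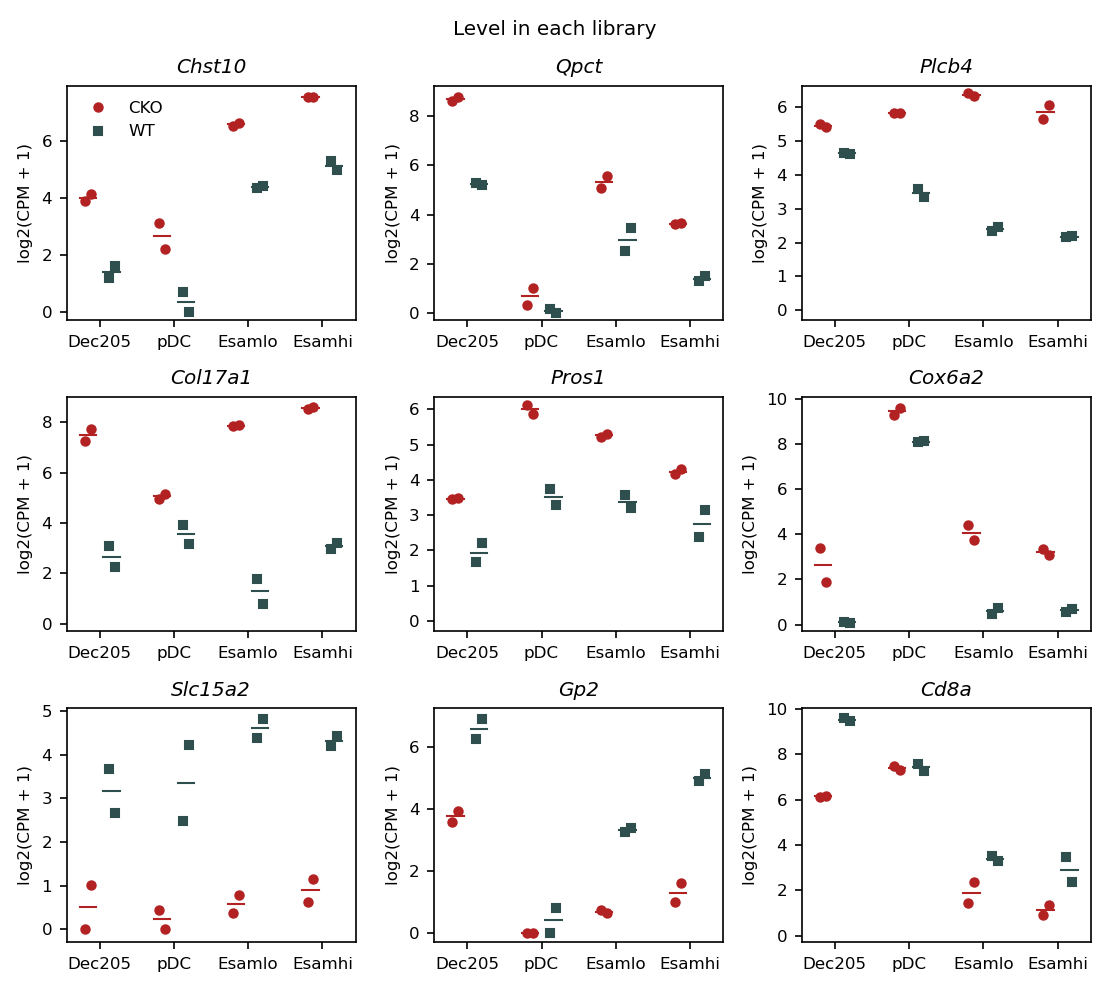
Level of 9 shared genes in each library (vertical axis, log2 of CPM plus 1; horizontal axis, subset), with CKO as red circles, WT as dark squares and short lines at the mean of 2 libraries. CKO lay above WT in every subset for Chst10, Qpct, Plcb4, Col17a1, Pros1 and Cox6a2, and below WT in every subset for Slc15a2. Gp2 in pDC and Cd8a in pDC overlapped or met.

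In the fit of all libraries, the test was passed in every subset by 9 genes, all higher in CKO: Col17a1, Chst10, Plcb4, Pros1, Grap, Scimp, Mfsd10, Rnaset2b and Itgax. The last 5 fall outside the naming rule and were picked for this count. Grap encodes an adaptor of the GRB2 family and had 184 and 164 CPM in Dec205 CKO against 58.6 and 53.4 CPM in Dec205 WT, and 313 and 301 CPM in pDC CKO against 108 and 109.7 CPM in pDC WT. It had 131 and 118 CPM in Esamlo CKO against 45.6 and 48.9 CPM in Esamlo WT, and 191 and 184 CPM in Esamhi CKO against 103 and 92.9 CPM in Esamhi WT. All 8 CKO libraries lay above all 8 WT libraries, at a mean log2 fold change of 1.37 (SE 0.05, adjusted p = 5.6e-09). Scimp, a transmembrane adaptor found with MHC class II molecules, had a mean of 0.85 (SE 0.05, adjusted p = 1.7e-06). Rnaset2b has a near-identical copy, Rnaset2a, so its reads may be shared with it.

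Interferon-stimulated genes rose in part. Of 53 tested genes in a list of the type I interferon response, 8 were shared genes and all were higher in CKO, where 2.71% of all autosomal tested genes were: Oas2, Oas3, Ifi47, Ddx58, Parp14, Samd9l, Slfn8 and Iigp1. Another 12 were called higher in the mean contrast without being shared, with Esamhi alone pointing the other way in 8 of them and pDC alone in 3. Without the 4 CKO libraries of number 1, 6 of the 8 lost their calls, leaving Oas2 and Ifi47. Called or not, 15 genes of the list had 1 direction in the 4 subsets, 11 higher and 4 lower in CKO. No gene of the list was a called shared gene lower in CKO, and the list's median mean log2 fold change was 0.33. Within a subset, the list's median was 0.63 for Dec205, 0.09 for pDC, 0.22 for Esamlo and -0.05 for Esamhi. Oas2, a synthase of the 2-5A messenger that activates RNase L, had 20.8 and 25.9 CPM in Dec205 CKO against 1.9 and 0 CPM in Dec205 WT, and 36.7 and 35.6 CPM in pDC CKO against 1.28 and 2.34 CPM in pDC WT. It had 73.9 and 74.5 CPM in Esamlo CKO against 19.9 and 19.5 CPM in Esamlo WT, and 86.7 and 92.8 CPM in Esamhi CKO against 37.4 and 52.2 CPM in Esamhi WT. The groups did not overlap in any subset, and the mean log2 fold change was 2.97 (SE 0.25, adjusted p = 1.6e-05). Its size differed between subsets (adjusted p = 0.025). Ifi47, a GTPase of the immunity-related family, had 127 and 118 CPM in Dec205 CKO against 23.7 and 33.95 CPM in Dec205 WT, and 333 and 320.2 CPM in pDC CKO against 259.9 and 249 CPM in pDC WT. It had 158 and 135 CPM in Esamlo CKO against 78.8 and 76.6 CPM in Esamlo WT, and 88.7 and 74.8 CPM in Esamhi CKO against 46.5 and 43.2 CPM in Esamhi WT. The mean was 1.06 (SE 0.07, adjusted p = 2.8e-06). Among 21 tested interferon receptor and signalling genes, 0 were called shared genes.

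Part of the PYHIN family rose too. The PYHIN genes on chromosome 1 encode proteins with pyrin and HIN domains, several of which sense DNA in the cytosol. Of 9 tested, 5 were shared genes and higher in CKO (background 2.71%), namely Pydc4, Pydc3, Mndal, Mnda and Ifi203, and they lie within 1 stretch of 8 tested genes. Pydc3 had 19.5 and 26.5 CPM in Dec205 CKO against 0.455 and 0.406 CPM in Dec205 WT, and 34.2 and 34.8 CPM in pDC CKO against 1.55 and 4.01 CPM in pDC WT. It had 24.7 and 19.7 CPM in Esamlo CKO against 5.57 and 6.7 CPM in Esamlo WT, and 19.9 and 14.6 CPM in Esamhi CKO against 4.63 and 6.75 CPM in Esamhi WT. All 8 CKO libraries lay above all 8 WT libraries, at a mean log2 fold change of 3.2 (SE 0.21, adjusted p = 1.7e-06). Its near copy Pydc4 had a mean of 2.2 (SE 0.17, adjusted p = 8.9e-06), and reads may be shared between the copies. The rise was larger in Dec205 and pDC than in the Esam cells for both, and the joint test of differences between subsets was passed (adjusted p = 0.00701 for Pydc3 and 0.00229 for Pydc4). Ifi203 had 37.5 and 40.01 CPM in Dec205 CKO against 11.7 and 13.7 CPM in Dec205 WT, and 228 and 233 CPM in pDC CKO against 144 and 161 CPM in pDC WT. It had 122 and 107 CPM in Esamlo CKO against 93.8 and 97.3 CPM in Esamlo WT, and 125 and 111 CPM in Esamhi CKO against 87.4 and 93.5 CPM in Esamhi WT. Its mean was 0.71 (SE 0.06, adjusted p = 9.2e-06). Mndal had smaller changes, with 0.42 for Dec205, 0.32 for pDC, 0.24 for Esamlo and 0.53 for Esamhi, and a mean of 0.38 (SE 0.05, adjusted p = 0.00076). Mnda had a mean of 0.34 (SE 0.08, adjusted p = 0.0329) and lost its call in 10 of the 16 fits that left out 1 library (adjusted p up to 0.0897).

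The promoters of these genes are shown because the 5 PYHIN genes moved together and each holds a match to the core of the interferon-stimulated response element, GAAANNGAA on either strand. The windows run from 100 bases before to 50 after a RefSeq transcription start (GRCm38.p6), on the gene's strand, with the match in capitals. Mndal and Ifi203 have 2 listed starts each, of which both hold a match in Mndal and 1 in Ifi203. A start with a match is shown.
Pydc4 (chr1:173599223-173599372, minus strand): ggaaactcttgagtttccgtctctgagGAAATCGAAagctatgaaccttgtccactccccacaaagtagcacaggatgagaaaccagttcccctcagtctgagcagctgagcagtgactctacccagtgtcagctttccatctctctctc
Pydc3 (chr1:173673565-173673714, plus strand): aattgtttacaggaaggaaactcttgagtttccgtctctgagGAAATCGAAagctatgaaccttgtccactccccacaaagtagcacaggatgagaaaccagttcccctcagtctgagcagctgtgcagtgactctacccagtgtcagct
Mndal (chr1:173880138-173880287, minus strand): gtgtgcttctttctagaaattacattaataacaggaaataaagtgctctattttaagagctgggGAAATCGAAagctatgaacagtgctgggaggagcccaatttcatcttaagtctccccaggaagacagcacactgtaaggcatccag
Mnda (chr1:173912997-173913146, minus strand): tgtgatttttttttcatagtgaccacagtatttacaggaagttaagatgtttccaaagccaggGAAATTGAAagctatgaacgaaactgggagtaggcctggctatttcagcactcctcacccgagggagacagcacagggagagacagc
Ifi203 (chr1:173942443-173942592, minus strand): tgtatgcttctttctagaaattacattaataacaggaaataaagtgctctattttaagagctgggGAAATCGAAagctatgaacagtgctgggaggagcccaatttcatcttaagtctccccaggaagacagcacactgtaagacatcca
The match reads GAAATCGAA in 4 of the 5 promoters and GAAATTGAA in that of Mnda, and it begins 35 to 73 bases before the start. In the Oas cluster, the promoters of Oas3 and Oas1c each hold a pair of overlapping matches, printed in capitals as 1 run. Those of Oas2 and Oas1b, the other shared genes of the cluster, are not shown, and nothing is read for the cluster as a whole. The Oas1c window starts 250 bases before the start, and its matches lie on the opposite strand.
Oas3 (chr5:120777610-120777759, minus strand): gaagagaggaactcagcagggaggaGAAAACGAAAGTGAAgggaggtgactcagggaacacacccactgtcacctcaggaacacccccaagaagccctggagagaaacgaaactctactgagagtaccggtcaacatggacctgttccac
Oas1c (chr5:120812465-120812764, minus strand): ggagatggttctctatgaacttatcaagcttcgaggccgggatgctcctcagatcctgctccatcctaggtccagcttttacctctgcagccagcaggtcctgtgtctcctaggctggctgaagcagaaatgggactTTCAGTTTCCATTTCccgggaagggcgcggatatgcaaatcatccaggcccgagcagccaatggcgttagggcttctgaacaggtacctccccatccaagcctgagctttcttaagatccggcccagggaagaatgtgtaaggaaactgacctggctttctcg
Over 286 higher shared genes with a promoter in the RefSeq table, 43 (15.03%) held GAAANNGAA in the window from 250 bases before to 50 after the start. The lower shared genes held it in 13 of 140 promoters (9.29%), all autosomal tested genes in 944 of 10525 (8.97%) and the interferon list in 28 of 43 (65.1%).

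ETS-type letters were counted in the same promoters, with no test of a difference. GAGGAAGT, a sequence of the kind bound by the ETS factor Spi1, was found in 27 of 286 higher promoters (9.44%), in 1 of 140 lower ones (0.714%) and in 422 of 10525 autosomal tested ones (4.01%). CCGGAAGT, the sequence preferred by most ETS factors, was found in 9 higher promoters (3.15%), in 9 lower ones (6.43%) and in 931 of all (8.85%). Both strands were searched, and a match is a description of the letters, not a bound site. In the shorter window from 100 bases before the start, GAGGAAGT was in 4.90% of the higher promoters and in 2.36% of all. GAGGAAGT begins 104 bases before the start in the promoters of Bcl2a1a and Bcl2a1d and 148 bases before it in that of Bcl2a1b. They are shown in full, in capitals at the match, since these 3 copies rose together.
Bcl2a1a (chr9:88956670-88956969, plus strand): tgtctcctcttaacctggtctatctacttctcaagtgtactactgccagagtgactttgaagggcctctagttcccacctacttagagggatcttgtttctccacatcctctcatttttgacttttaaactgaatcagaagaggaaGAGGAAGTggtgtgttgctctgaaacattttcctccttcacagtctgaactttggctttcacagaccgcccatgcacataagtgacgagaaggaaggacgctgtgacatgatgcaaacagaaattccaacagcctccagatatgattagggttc
Bcl2a1d (chr9:88731801-88732100, minus strand): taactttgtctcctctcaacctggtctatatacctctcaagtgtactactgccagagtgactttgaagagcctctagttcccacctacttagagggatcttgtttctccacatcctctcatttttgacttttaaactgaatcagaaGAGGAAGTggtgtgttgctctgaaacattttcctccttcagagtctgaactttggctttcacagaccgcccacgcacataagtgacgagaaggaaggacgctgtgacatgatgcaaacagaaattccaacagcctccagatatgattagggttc
Bcl2a1b (chr9:89199023-89199322, plus strand): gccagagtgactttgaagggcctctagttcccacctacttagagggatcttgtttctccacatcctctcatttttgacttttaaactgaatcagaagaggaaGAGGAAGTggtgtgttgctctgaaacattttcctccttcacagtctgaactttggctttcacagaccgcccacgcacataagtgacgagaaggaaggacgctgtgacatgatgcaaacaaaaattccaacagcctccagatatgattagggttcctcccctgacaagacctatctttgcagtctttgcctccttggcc

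Some survival genes of the Bcl2 family rose. Of 21 tested apoptosis regulators, 4 were shared genes and higher in CKO (background 2.71%), and the list's median was 0.09. They were Bcl2 and the copies Bcl2a1a, Bcl2a1b and Bcl2a1d, all of which protect cells from apoptosis. Bcl2 had 35.1 and 34.9 CPM in Dec205 CKO against 16.7 and 19.1 CPM in Dec205 WT, and 24.2 and 29.1 CPM in pDC CKO against 22.3 and 21.5 CPM in pDC WT. It had 54.7 and 58.3 CPM in Esamlo CKO against 43.1 and 43.8 CPM in Esamlo WT, and 40.02 and 43.4 CPM in Esamhi CKO against 29.5 and 22.8 CPM in Esamhi WT. The groups did not overlap in any subset, at a mean log2 fold change of 0.57 (SE 0.08, adjusted p = 0.00071). Bcl2a1b had 433 and 421 CPM in Dec205 CKO against 378 and 295 CPM in Dec205 WT, and 8.51 and 6.86 CPM in pDC CKO against 2.19 and 3.4 CPM in pDC WT. It had 449 and 529 CPM in Esamlo CKO against 389 and 356 CPM in Esamlo WT, and 638 and 580.4 CPM in Esamhi CKO against 512 and 547 CPM in Esamhi WT. Its mean was 0.60 (SE 0.08, adjusted p = 0.00078), with 0.35 for Dec205, 1.45 for pDC, 0.39 for Esamlo and 0.20 for Esamhi. Bcl2a1a had a mean of 0.61 and Bcl2a1d of 0.47, and reads can be shared among the 3 copies.

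The genes of the integrin cluster on chromosome 7 rose as a block. Itgax encodes CD11c, the integrin alpha chain by which DCs are recognised, and had 395 and 491 CPM in Dec205 CKO against 321 and 301 CPM in Dec205 WT, and 226 and 189 CPM in pDC CKO against 144 and 112 CPM in pDC WT. It had 1418 and 1329 CPM in Esamlo CKO against 879 and 869 CPM in Esamlo WT, and 1389 and 1436 CPM in Esamhi CKO against 928 and 867 CPM in Esamhi WT. The groups did not overlap in any subset, and the log2 fold changes were 0.51 for Dec205, 0.70 for pDC, 0.65 for Esamlo and 0.65 for Esamhi, with a mean of 0.63 (SE 0.06, adjusted p = 7.2e-05). Itgam, which encodes CD11b, lies next to Itgax and had a mean of 1.28 (SE 0.15, adjusted p = 0.00018), and Itgad, which encodes CD11d, one of 1.05 (SE 0.10, adjusted p = 5.1e-05). Cox6a2, the muscle form of a cytochrome oxidase subunit and a marker of pDCs, had 9.64 and 2.72 CPM in Dec205 CKO against 0.0759 and 0.0676 CPM in Dec205 WT, and 620.2 and 779 CPM in pDC CKO against 272 and 278 CPM in pDC WT. It had 20.2 and 12.5 CPM in Esamlo CKO against 0.398 and 0.664 CPM in Esamlo WT, and 9.29 and 7.38 CPM in Esamhi CKO against 0.479 and 0.623 CPM in Esamhi WT. Its mean was 4.13 (SE 0.31, adjusted p = 5.1e-06). All 5 tested genes between Itgam and Cox6a2 were shared and higher in CKO, the other being 4931431B13Rik. 4931431B13Rik lies within the span of Itgad, and counts made without strand cannot tell their reads apart there. Cox6a2 shares 70 bases of its 932 with the end of Itgad. Of the 23 further tested genes that start within 500 kb of Itgax, 1 was a shared gene, Hsd3b7, with a mean of 0.29. Transgenes built on Itgax sequence are commonly used to express Cre in DCs. The labels name none, and the part of such a transgene in these values was not tested.

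**Figure D4:**
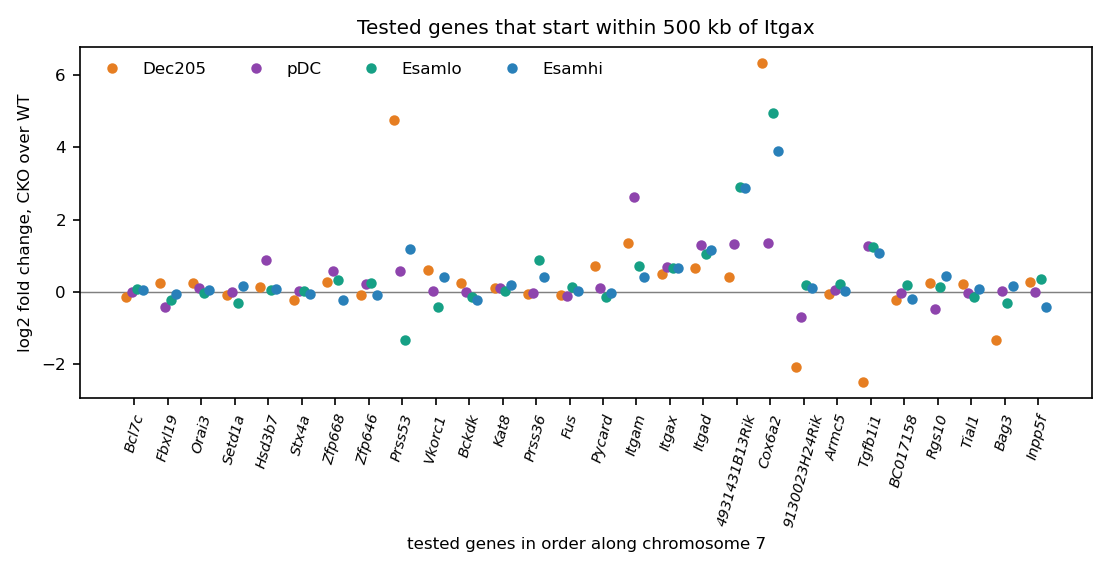
Log2 fold change of CKO over WT (vertical axis) in each subset (colours) for 28 tested genes that start within 500 kb of Itgax, in their order along chromosome 7 (horizontal axis). Itgam, Itgax, Itgad, 4931431B13Rik and Cox6a2 stood above 0 in every subset, and the genes on either side scattered around 0.

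Other shared genes lay near each other. Of the 544 shared genes, 132 (24.3%) lay in 58 runs in which starts were within 200000 bases of each other, and 45 of the runs had 1 direction. Oas2, Oas3, Oas1c and Oas1b were 4 of the 4 tested genes in their span, all higher. Sycp2, Ppp1r3d and Fam217b were 3 of 3. Fam217b had 39.3 and 40.3 CPM in Dec205 CKO against 0.835 and 0.947 CPM in Dec205 WT, and 19.8 and 14.5 CPM in pDC CKO against 12.4 and 10.3 CPM in pDC WT. It had 38.9 and 41.8 CPM in Esamlo CKO against 7.95 and 8.63 CPM in Esamlo WT, and 36.7 and 25.1 CPM in Esamhi CKO against 4.53 and 4.2 CPM in Esamhi WT. The mean was 2.79 (SE 0.12, adjusted p = 3.2e-08). Ppp1r3d, a subunit that directs protein phosphatase 1 to glycogen, had a mean of 3.53 (SE 0.26, adjusted p = 5.1e-06). Its span shares 760 of 3258 bases with that of Fam217b, and counts made without strand could share reads there.

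Among the genes that fell was a transporter. Slc15a2 encodes the peptide transporter PEPT2, which carries bacterial dipeptides into cells, and had 0 and 1.04 CPM in Dec205 CKO against 11.8 and 5.34 CPM in Dec205 WT, and 0.37 and 0 CPM in pDC CKO against 4.59 and 17.7 CPM in pDC WT. It had 0.287 and 0.734 CPM in Esamlo CKO against 20.1 and 27.5 CPM in Esamlo WT, and 0.543 and 1.24 CPM in Esamhi CKO against 17.5 and 20.4 CPM in Esamhi WT. All 8 CKO libraries lay below all 8 WT libraries, at a mean log2 fold change of -4.97 (SE 0.56, adjusted p = 0.00017). The ratios of fitted levels were 17.3-fold lower in Dec205 CKO, 57.8-fold lower in pDC CKO, 46.8-fold lower in Esamlo CKO and 20.8-fold lower in Esamhi CKO. Gp2, known in M cells as a receptor for bacterial fimbriae, had 11.02 and 14.3 CPM in Dec205 CKO against 75.4 and 119 CPM in Dec205 WT, and 0 and 0 CPM in pDC CKO against 0 and 0.762 CPM in pDC WT. It had 0.669 and 0.565 CPM in Esamlo CKO against 8.64 and 9.36 CPM in Esamlo WT, and 1.02 and 2.03 CPM in Esamhi CKO against 29.03 and 33.6 CPM in Esamhi WT. The fall was clear in Dec205, Esamlo and Esamhi, while in pDC the gene was at 0 in 3 of 4 libraries. Its mean was -4.23 (SE 0.47, adjusted p = 0.00025), and without the second pDC WT library the adjusted p was 1. Scel, which encodes sciellin of the epidermal cornified envelope, had a mean of -3.53 (SE 0.70, adjusted p = 0.0114) and was at 0 in both pDC CKO libraries, and its call was lost without Esamlo or Esamhi. The metalloprotease gene Adamdec1 had 1.44 and 2.01 CPM in Dec205 CKO against 2.88 and 27.5 CPM in Dec205 WT, and 0.0528 and 0 CPM in pDC CKO against 0.748 and 3.51 CPM in pDC WT. It had 7.6 and 5.2 CPM in Esamlo CKO against 15.3 and 61.2 CPM in Esamlo WT, and 12.8 and 3.72 CPM in Esamhi CKO against 16.99 and 80.4 CPM in Esamhi WT. In every subset, the WT library of number 2 lay more than 3-fold above the WT library of number 1. The mean was -3.57 (SE 0.69, adjusted p = 0.00824). The call was lost with limma-voom and with means over subsets, 2 against 2.

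Of the other evenly shared lower genes, Dapk1, a death-associated kinase, had a mean of -1.39 (SE 0.30, adjusted p = 0.0162), and its call was lost without Esamlo or Esamhi. Clec4a3 had a mean of -2.1 (SE 0.46, adjusted p = 0.0168) and Apol7c one of -1.29 (SE 0.21, adjusted p = 0.00263), and without the second pDC WT library the adjusted p was 0.0958 for Clec4a3 and 0.119 for Apol7c. Cdh17 (mean -2.85) lost its call in 6 of the 16 fits that left out 1 library, Prkar2b (-0.78) in 3 and Mras (-0.95) in 3. Adam8, a membrane metalloprotease of leukocytes, had 483 and 548 CPM in Dec205 CKO against 989.8 and 969.6 CPM in Dec205 WT, and 0 and 0.107 CPM in pDC CKO against 2.4 and 0.762 CPM in pDC WT. It had 62.3 and 86.6 CPM in Esamlo CKO against 103 and 112 CPM in Esamlo WT, and 174 and 197 CPM in Esamhi CKO against 366 and 331 CPM in Esamhi WT. The groups did not overlap in any subset, at a mean of -1.77 (SE 0.22, adjusted p = 0.00039).

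Some chaperones fell by small amounts. Of 28 tested immediate early and heat shock genes, 5 were shared genes and lower, where 1.37% of all autosomal tested genes were (Klf6, Hspa8, Hsp90aa1, Hsp90ab1 and Hsph1) and 1, Jun, was shared and higher, with a list median of -0.17. Hspa8, the constitutive HSP70, had 1115 and 1072 CPM in Dec205 CKO against 1484 and 1320.3 CPM in Dec205 WT, and 506 and 484 CPM in pDC CKO against 659.7 and 614 CPM in pDC WT. It had 942 and 958 CPM in Esamlo CKO against 1205 and 1108 CPM in Esamlo WT, and 936 and 892 CPM in Esamhi CKO against 1072 and 1034 CPM in Esamhi WT. Its mean was -0.30 (SE 0.04, adjusted p = 0.0004), with no overlap in any subset. Hsp90ab1 had a mean of -0.30 (SE 0.04, adjusted p = 0.00028). Hsph1, a co-chaperone of HSP70, had 90.7 and 80.7 CPM in Dec205 CKO against 129 and 121 CPM in Dec205 WT, and 98.1 and 63.96 CPM in pDC CKO against 114 and 101 CPM in pDC WT. It had 81.1 and 67.7 CPM in Esamlo CKO against 125 and 126 CPM in Esamlo WT, and 61.04 and 69.7 CPM in Esamhi CKO against 128 and 113 CPM in Esamhi WT. All 8 CKO libraries lay below all 8 WT libraries, at a mean of -0.65 (SE 0.09, adjusted p = 0.00065). Calls on Jun, Hsp90aa1 and Klf6 were less stable, lost in 14, 13 and 4 of the 16 fits that left out 1 library.

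A few identity genes of DCs were shared, and each count below stands beside 4.09% of all autosomal tested genes. Of 28 tested cDC1 identity genes, Ppt1 and Snx22 were shared and higher and Cadm1 and Cd8a shared and lower. Cd8a, the coreceptor that marks lymphoid-tissue cDC1, had 69.2 and 70.7 CPM in Dec205 CKO against 781 and 699 CPM in Dec205 WT, and 179 and 159 CPM in pDC CKO against 193 and 152 CPM in pDC WT. It had 1.72 and 4.12 CPM in Esamlo CKO against 10.3 and 8.7 CPM in Esamlo WT, and 0.882 and 1.58 CPM in Esamhi CKO against 10.1 and 4.15 CPM in Esamhi WT. It overlapped in pDC, and its mean was -1.91 (SE 0.19, adjusted p = 4.9e-05), with a difference between subsets (adjusted p = 0.00516). Cadm1, an adhesion molecule of cDC1, had a mean of -0.71 (SE 0.17, adjusted p = 0.0279) and lost its call in 6 of 16 fits that left out 1 library. Of 28 tested cDC2 genes, Itgam was shared and higher and Clec4a3 shared and lower. Of 28 tested pDC genes, Ly6d, Cox6a2, Pacsin1 and Mzb1 were shared and higher and Lag3 and Lifr shared and lower. Calls on Ly6d, Pacsin1 and Mzb1 were lost both with limma-voom and with an additive model of subset and genotype. That on Lifr was lost with the additive model, while that on Cox6a2 held in both. Lag3, a receptor of MHC class II, had 2.97 and 1.75 CPM in Dec205 CKO against 3.42 and 3.92 CPM in Dec205 WT, and 53.7 and 53.8 CPM in pDC CKO against 72.97 and 64.9 CPM in pDC WT. It had 2.68 and 5.2 CPM in Esamlo CKO against 9.43 and 6.17 CPM in Esamlo WT, and 5.09 and 4.06 CPM in Esamhi CKO against 13.1 and 14.6 CPM in Esamhi WT. Its mean was -0.89 (SE 0.16, adjusted p = 0.00516). Lifr, the receptor for leukaemia inhibitory factor, fell mainly in Dec205, where it was at 0 in both CKO libraries against 1.14 and 1.83 CPM in Dec205 WT. Of 25 tested DC transcription factors, Bach2 was shared and higher and Runx1 shared and lower. Runx1, a regulator of blood cell development, had 46.2 and 61.7 CPM in Dec205 CKO against 81.4 and 101 CPM in Dec205 WT, and 84.2 and 80.7 CPM in pDC CKO against 87.9 and 97.96 CPM in pDC WT. It had 146 and 135 CPM in Esamlo CKO against 152 and 168 CPM in Esamlo WT, and 76.7 and 80.9 CPM in Esamhi CKO against 113 and 109 CPM in Esamhi WT. Its mean was -0.40 (SE 0.07, adjusted p = 0.00434). Bach2 lost its call in 13 of 16 fits that left out 1 library.

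Of 15 tested chemokine receptor genes, Gpr183 was shared and higher in CKO and Cxcr4 shared and lower. Gpr183, also known as EBI2, guides DCs to oxysterols in the spleen, and had 144 and 120.3 CPM in Dec205 CKO against 64.3 and 77.4 CPM in Dec205 WT, and 433 and 470.04 CPM in pDC CKO against 235 and 216 CPM in pDC WT. It had 329.99 and 333 CPM in Esamlo CKO against 289 and 274 CPM in Esamlo WT, and 499 and 437 CPM in Esamhi CKO against 419 and 384 CPM in Esamhi WT. The groups did not overlap in any subset. Its mean was 0.59 (SE 0.06, adjusted p = 4.5e-05), and the sizes differed between subsets (adjusted p = 0.0208). Cxcr4, the receptor of CXCL12, had a mean of -0.35 (SE 0.08, adjusted p = 0.0213) and lost its call in 4 of 16 fits that left out 1 library. Tlr1, which pairs with TLR2 to detect bacterial lipoproteins, was the called shared gene of 17 tested Toll-like receptor genes. Its mean of 1.57 (SE 0.32, adjusted p = 0.0115) rested on pDC, with 0.16 for Dec205, 5.79 for pDC, 0.14 for Esamlo and 0.18 for Esamhi, and its call was lost when pDC was left out. In antigen presentation, the immunoproteasome subunit gene Psmb10 had a mean of 0.31 (SE 0.05, adjusted p = 0.00129) and Rac2 one of 0.42 (SE 0.05, adjusted p = 0.00032), out of 23 tested MHC class I and cross-presentation genes. Of 26 tested maturation genes, Cd200 was shared and higher and Socs2 shared and lower, with Cd200 losing its call in 7 of 16 fits.

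Some large effects were shared in direction and far apart in size. Plac8, a small cysteine-rich protein of leukocytes, had 1844 and 2117 CPM in Dec205 CKO against 308 and 339.6 CPM in Dec205 WT, and 1104 and 1295 CPM in pDC CKO against 1073 and 1123 CPM in pDC WT. It had 638 and 704 CPM in Esamlo CKO against 362 and 419 CPM in Esamlo WT, and 575 and 514 CPM in Esamhi CKO against 241 and 299.7 CPM in Esamhi WT. Its mean was 1.13 (SE 0.06, adjusted p = 3.8e-07). Sema4a, a semaphorin that acts on T cells, had a log2 fold change of 0.00 for Dec205, 0.79 for pDC, 1.13 for Esamlo and 2.57 for Esamhi. It overlapped in Dec205, where its sign alone made it a shared gene. Rtn1, a reticulon of the endoplasmic reticulum, moved most in pDC, with 0.72 for Dec205, 2.51 for pDC, 0.38 for Esamlo and 0.07 for Esamhi. The adjusted p for a difference between subsets was 0.00014 for Plac8, 0.00045 for Sema4a and 0.00082 for Rtn1. Ctgf, a secreted matricellular protein, had 31.5 and 32.1 CPM in Dec205 CKO against 0.228 and 0 CPM in Dec205 WT. It lay at 1.82 CPM or less in the other libraries, and its mean of 4.92 (SE 0.66, adjusted p = 0.00092) rests on groups at or near 0.

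Part of the B cell markers also rose in CKO. Of 15 tested, 7 were shared genes and higher, where 2.71% of all autosomal tested genes were (among them Cd79a, Cd79b, Ms4a1, Ebf1, Fcmr and Cd37), 0 were lower, and the list's median was 0.80. The summed level of the 15 markers was 1344 and 697 CPM in Dec205 CKO against 381 and 392 CPM in Dec205 WT, and 873 and 776 CPM in pDC CKO against 585 and 538 CPM in pDC WT. It was 1788 and 807 CPM in Esamlo CKO against 563 and 733 CPM in Esamlo WT, and 745 and 567 CPM in Esamhi CKO against 633 and 627 CPM in Esamhi WT. The sums did not overlap in Dec205, pDC and Esamlo and overlapped in Esamhi, and the CKO libraries of number 1 were above those of number 2 in every subset. Ms4a1, which encodes the B cell surface protein CD20, had 141 and 146 CPM in Dec205 CKO against 52.1 and 50.99 CPM in Dec205 WT, and 34.4 and 22.9 CPM in pDC CKO against 25.7 and 22.6 CPM in pDC WT. It had 97.9 and 48.3 CPM in Esamlo CKO against 35.3 and 53.2 CPM in Esamlo WT, and 56.7 and 59.2 CPM in Esamhi CKO against 33.03 and 36.9 CPM in Esamhi WT. Its mean was 0.79 (SE 0.14, adjusted p = 0.00533), and its call was lost without Dec205 and without the 4 CKO libraries of number 1. Cd79a, Cd79b, Ebf1 and Fcmr lost their calls in 7, 13, 2 and 11 of the 16 fits that left out 1 library. B cells express Bach2, Bcl2, Bcl2a1, Gpr183, Mzb1, Plac8 and Cd37 too, and the part of B cell RNA in those results was not tested. Without the 4 CKO libraries of number 1, 211 shared genes were called, of which 177 were among the 544, and without the 4 of number 2, 323, of which 234 were. Among markers of other cells, 1 called shared gene each was found in the lists of plasma cells (Mzb1, higher), T cells (Bcl11b, lower), monocytes (Plac8, higher), neutrophils (S100a8, higher) and erythroid cells with platelets (Itga2b, higher). None was called for NK cells (10 tested) or red pulp macrophages (12 tested).

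**Figure D5:**
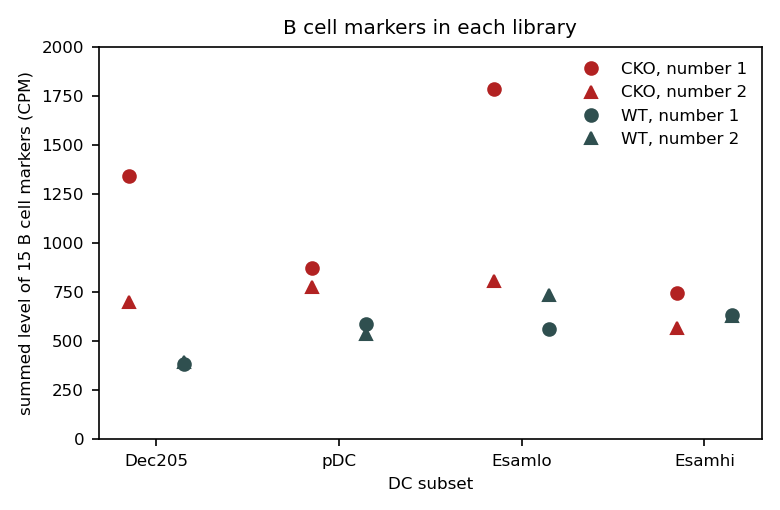
Summed level of 15 B cell markers (vertical axis, CPM) in each library by subset (horizontal axis), with CKO in red and WT in dark grey, circles for number 1 and triangles for number 2. CKO number 1 reached 1344 CPM in Dec205 and 1788 CPM in Esamlo, and the Esamhi libraries of both genotypes lay between 567 and 745 CPM.

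Lists of core processes held 0 to 2 called shared genes each, and with 4.09% of all autosomal tested genes called and shared, nothing is read from these counts. Of 30 tested cell cycle genes, 0 had the same direction in the 4 subsets, with a median log2 fold change of 1.20 in pDC and -0.24 in Esamlo. Of 40 tested ribosomal protein genes, 2 had 1 direction and 0 were called. Of 35 tested oxidative phosphorylation genes, Uqcrfs1 and Atp5c1 were shared and lower, and they lost their calls in 13 and 7 of 16 fits. MHC class II presentation (18 tested) and NF-kB subunits and feedback (18 tested) gave 0 called shared genes each. Among 17 tested ETS family genes, Etv6 was the called shared gene.

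The rule's threshold fell among genes of small effect or large spread. Just inside lay Pla2g4f (mean log2 fold change -1.03) and Cyp27a1 (0.24), both at an adjusted p of 0.0498. Just outside lay B3gnt3 (1.68) and Rsad2 (-0.52), both at 0.0502.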

How the data were processed

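Counts per gene were deposited by the authors as raw whole numbers in a table of 24116 genes by 16 libraries. The submitters' processing notes name bcl2fastq, Trimmomatic 0.36, Bowtie2 2.2.9 and the mm10 build. What counted the reads, against which annotation and with which strand setting, is not stated in them. Per the labels' protocols, RNA of sorted cells was amplified with the SMART-seq v4 kit, which has no molecular identifiers, so floors (3 counts, 0.143 to 0.228 CPM) cover counting error only.

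Genes were filtered with filterByExpr, scaled by TMM and tested with edgeR 4.0.16 (R 4.3.3), by the quasi-likelihood F test with robust estimation, 1 coefficient for each of 8 groups and no covariate (8 residual degrees of freedom, common biological coefficient of variation 23.6%). Tests were two-sided and Benjamini-Hochberg adjusted over the 13790 tested genes, with calls under 0.05. Standard errors come from the F statistic. Genes whose libraries were at 0 in 1 whole subset numbered 854, and their mean contrast is poorly determined. Of the 24116 genes, 10326 were filtered out; without the filter, 2553 genes were members and 533 were called. DESeq2 1.42.0, limma 3.58.1 with voom and edgeR's glmTreat were alternatives. The edgeR mean contrast was tested on simulated data. Positions came from the RefSeq annotation of GRCm38.p6, to which mm10 corresponds, by Entrez identifier (24061 genes placed), and promoters from the RefSeq table of that build, which matched 426 of the 544 shared genes by gene identifier.

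Members and gene lists (31 lists, 673 entries, 13 with no row) were chosen with earlier results of these data known, so no count over a list is independent evidence. Named genes are called shared genes whose mean log2 CPM reached 2: the 15 higher and 10 lower ones with the largest smallest change, the 5 higher and 5 lower ones with the largest mean, the 5 with the smallest p for a difference between subsets, and Etv6. Called members of the lists were named at any level, which added Itgb4, Bcl11b and Prkg1 below 2. Values of 1 member of the B cell list are not reported here.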

Additional observations from a re-analysis of the deposited data

Results flagged for a closer look

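The size of the CKO effect differed between the 4 subsets in 23 of the 95 named genes, by edgeR's quasi-likelihood test of the 3 differences with Benjamini-Hochberg adjustment. The largest change was in Dec205 for 14 of them, with adjusted p-values of 0.00014 for Plac8, 0.00022 for Fam217b, 0.00229 for Pydc4, 0.00279 for Ifi203, 0.0031 for Ppp1r3d, 0.0037 for Ifi47, 0.00384 for Lifr, 0.00516 for Cd8a, 0.00701 for Pydc3, 0.00812 for Aoah, 0.0114 for Tns1, 0.0134 for Rac2, 0.0176 for Cox6a2 and 0.025 for Oas2. It was in pDC for 6, with 0.00082 for Rtn1, 0.0122 for Plpp2, 0.014 for Oas1c, 0.0208 for Gpr183, 0.0422 for Itgam and 0.0443 for Bcl2a1d. It was in Esamlo for 2, with 6.4e-05 for Plcb4 and 0.00068 for Col17a1. It was in Esamhi for 1, with 0.00045 for Sema4a. These genes share a direction and not a size. Of all tested genes, 2.44% passed the test of the 3 differences. Plcb4, Plac8, Fam217b, Sema4a and Rtn1 were named for their small p in it, so nothing is read from the count of 23. Sema4a and Rtn1 have 1 subset with a change of less than 0.10 on the log2 scale, as do Cd8a and Rac2 in pDC.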

How the results depend on the processing

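The count of called shared genes was 544, and 545 with library size only, 543 with RLE factors, 542 with autosomal scaling, 533 without a filter and 503 with limma-voom. DESeq2 called 819 shared genes (1347 of all genes, and 158 that differed between subsets). Fewer passed with an additive model (317 shared, 370 in all), with glmTreat against a fold of 1.5 (82 and 107) and with means over subsets, 2 against 2 (159 and 220). Leaving out 1 library gave 354 to 668 shared and 520 to 1101 called genes, lowest without the first Esamlo CKO library and highest without the first Dec205 WT library. Leaving out a subset, where shared means 1 direction in the 3 that remain, gave 331 shared genes without Esamlo (472 in all), 385 without Esamhi (494 in all), 551 without Dec205 and 662 without pDC. Chosen after seeing the data, the fits without CKO libraries of number 1 gave 211 shared, 320 called and 9 differing genes, and without those of number 2, 323, 469 and 14. Restricting to genes of at least 1 CPM in every subset, also chosen afterwards, left 496 shared genes (320 higher, 176 lower). The cause of these shifts was not tested, beyond the fewer libraries in some fits.

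The replicate numbers were not taken as pairs: deviations of CKO and WT libraries of the same subset and number correlated at -0.07 to 0.02. Those of the same genotype and number in different subsets correlated at 0.00719 to 0.116, positive in 12 of 12 pairs of groups, and limma-voom with a replicate block by genotype and number called 495 shared genes, in place of 503. With a replicate block shared by all subsets 556 shared genes were called, and with a replicate block within subset 430, with 37 differing between subsets in place of 64.

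Calls within a subset depended most on the fit. Beside 935, 255, 76 and 121 genes called for Dec205, pDC, Esamlo and Esamhi, fits of 1 subset alone called 136, 91, 126 and 578, and DESeq2 called 1715, 546, 254 and 307. Leaving out 1 library gave 585 to 1328 for Dec205, 176 to 281 for pDC, 28 to 38 for Esamlo and 44 to 48 for Esamhi. At an adjusted p under 0.01 the share with the same direction in the subset left out was 83.4% in Dec205, 75.6% in pDC and 95.4% in Esamlo. With 2 libraries a group, an exact permutation of 1 subset cannot give a p below 0.333.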
